A study of Mus musculus with 24 samples.

Results

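The comparison described here asks how the hepatic response to pregnenolone-16α-carbonitrile (PCN), a steroid that activates mouse PXR, differed once CAR was missing as well as PXR. It set the 6 arrays of CAR/PXR-deficient livers against the 6 arrays of PXR-deficient livers, 12 of the 24 arrays of the series, over every mouse probe of the array. The other 12 arrays were of CAR-deficient and wild type livers, 6 each. All animals were male C57BL/6J mice of 9 to 12 weeks. PCN was given by intraperitoneal injection at 40 mg/kg, in corn oil with 5% DMSO, and livers were taken 12 h later. On each array RNA of PCN-treated liver carried Cy5 and a pool from vehicle-treated livers of the same genotype carried Cy3, so that each value is a log2 ratio of PCN over vehicle within 1 genotype. The labels describe that pool once as untreated and once as vehicle-injected. The labels give the genotypes by name only, without the alleles or the part of each gene that was removed.

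CAR (gene Nr1i3) and PXR (gene Nr1i2) are nuclear receptors of hepatocytes that sense drugs, steroids and bile acids. They pair with RXR, bind partly shared DNA elements and raise overlapping sets of genes for cytochrome P450 enzymes, conjugating enzymes and transporters. PXR is the receptor PCN acts on in mouse, and both receptors are also known for effects on glucose, lipid and inflammatory genes in liver.

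The array, a spotted design for sterol, drug and energy metabolism, carried 284 mouse probes, of which 147 had a gene symbol in the table used here and 137 are given by probe name alone. After removal of 48 dim probes, 236 were tested, 128 of them with a symbol. Cy5 and Cy3 were never exchanged between PCN and vehicle RNA, so any dye bias of a probe is part of all its ratios. The labels state that RNA of 6 replicates was pooled without saying in which channel, so the p-values below measure the spread between arrays, which may be technical, and the Cy3 channel held 1 pool per genotype. In bulk liver RNA, fewer cells of a type and less RNA per cell cannot be told apart.

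Some arrays of the comparison stood apart. On PXR-deficient replicate 2 the median log2 ratio of mouse probes, centred on the control probes, was 1.16, against -0.17 to 0.26 on the other PXR-deficient arrays. CAR/PXR-deficient replicates 5 and 6 had a Cy5 background of 0, with 14.3% and 18.1% of their Cy5 spots at 0. Pairs of arrays correlated at 0.88 to 0.97 across probes within the CAR/PXR-deficient genotype, and at 0.15 to 0.84 within the PXR-deficient genotype. The probes of the targeted genes could not check the genotypes. The Nr1i2 probe had Cy5 levels, on the log2 intensity scale, of 8.35 in CAR/PXR-deficient, 7.90 in PXR-deficient, 7.77 in CAR-deficient and 7.71 in wild type livers, and the Nr1i3 probe of 7.73, 8.05, 7.69 and 8.01 in the same genotypes. The Nr1i2 level was no lower where PXR was missing, and the Nr1i3 level was slightly lower in both genotypes without CAR than in both with it, a difference that was not tested. Whether either probe lies in a removed part is not stated. The liver genes Apoa1, the main protein of high-density lipoprotein, and Cyp2e1, a P450 enzyme of ethanol metabolism, were among the bright probes.

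The PCN log2 ratio differed between CAR/PXR-deficient and PXR-deficient livers for 98 of 236 probes (41.5%; limma, adjusted p under 0.05), with 57 higher (24.2%) and 41 lower (17.4%) in CAR/PXR-deficient livers. The higher side was led by ST_Mm_277, ST_Mm_279 and ST_Mm_280, whose log2 ratios differed by 6.39 to 6.82, and by Fgb, which encodes a chain of fibrinogen. The lower side was led by Slco1b2, a hepatic uptake transporter of bile acids and drugs, and held several P450 enzymes, the export pump Abcc2 and the gluconeogenic enzyme G6pc. Only 10 probes differed by at least 2-fold, 9 higher and 1 lower, and 46 of the 57 higher differences were below 0.5 on the log2 scale. Left out in turn, each of the 12 arrays gave 88 to 102 differing probes. Without PXR-deficient replicate 2 there were 90, and without CAR/PXR-deficient replicates 5 and 6 there were 81.

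The ratios were also scaled without background subtraction, by median centring, by centring on control probes and by loess within print blocks, and taken from the authors' deposited series values and from their log ratio column. All 41 lower probes stayed lower under all 6 of these, and 28 of them passed the test under every one. Of the 57 higher probes, 50 kept their direction under all 6 and 9 passed the test under every one. Those 9 were ST_Mm_277, ST_Mm_279, ST_Mm_280, ST_Mm_281, ST_Mm_291, ST_Mm_292, Fgb, Abca1 and ST_Mm_095. With the ratios centred on the control probes, 10 probes were higher and 38 lower. With median centring 29 were higher and 32 lower, and with the authors' deposited series values 26 were higher and 41 lower. The median difference over all tested probes was 0.06 in the main setting, -0.29 with control centring and -0.08 with control centring without PXR-deficient replicate 2. Without that array the shift of the median was thus smaller, but control centring still gave only 14 higher probes and 31 lower ones.

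The ratios of the differing probes mostly lay on opposite sides of 0 in the genotypes. Opposite signs were found for 52 of the 57 higher probes, 40 of the 41 lower ones and 55 of the 138 that did not pass the test. Choosing probes for a difference between ratios centred near 0 favours opposite signs, so these counts follow partly from the choice. By the test within each genotype, 10.6% of all tested probes were raised and 11.9% lowered in CAR/PXR-deficient livers. In PXR-deficient livers 19.5% were raised and 19.5% lowered. Raised and lowered here mean a ratio above or below 0 against the genotype's vehicle pool. The test cannot tell a change by PCN from a differing pool or a dye bias. Of the higher probes, 33 were lowered in PXR-deficient livers and did not pass the test in CAR/PXR-deficient livers. By the same criterion 11 were raised in CAR/PXR-deficient livers alone. Another 6 were raised in CAR/PXR-deficient and lowered in PXR-deficient livers. Among the lower probes, 15 were lowered in CAR/PXR-deficient and raised in PXR-deficient livers, 14 passed the test only as raised in PXR-deficient livers and 7 only as lowered in CAR/PXR-deficient livers. The differences between genotypes are those tested above, not these counts. Across the 236 probes, single CAR/PXR-deficient and PXR-deficient arrays correlated at -0.78 to 0.03, with a median of -0.51, and 30 of 36 pairs lay under -0.3. Pairs with PXR-deficient replicate 2, an array that stood apart, lay at -0.05 to 0.03, and all other pairs at -0.78 to -0.36. Without the 7 probes whose mean ratio reached 1 in CAR/PXR-deficient livers the median correlation was -0.21. The labels give the dyes of both genotypes in the same order, so the direction was kept.

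**Figure D1:**
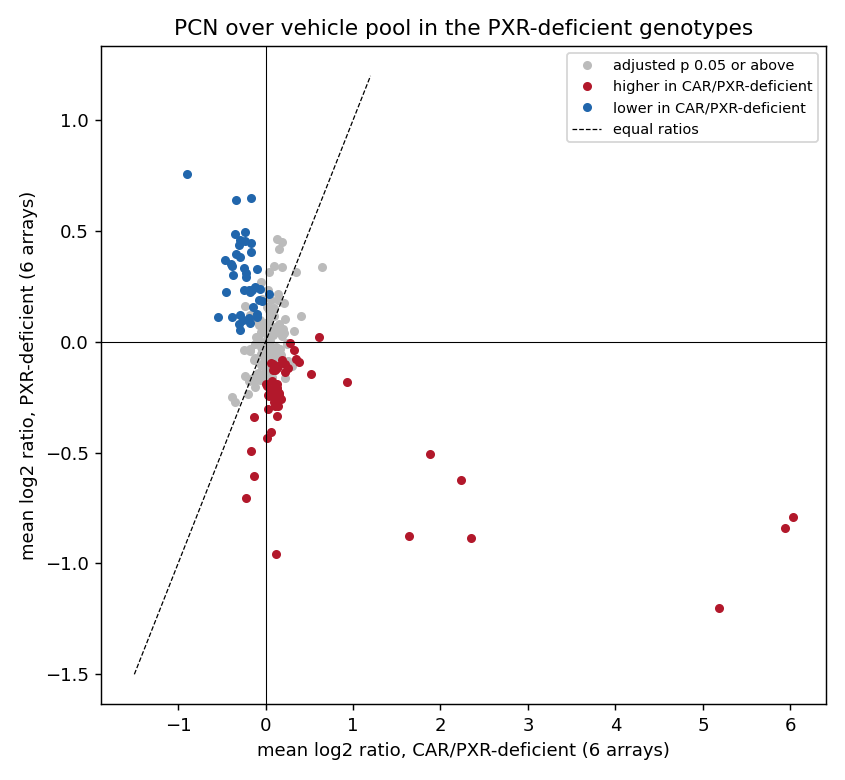
Mean PCN log2 ratio of the 236 tested probes in CAR/PXR-deficient livers (horizontal axis) and PXR-deficient livers (vertical axis), 6 arrays each, coloured by the test of the difference. The 57 higher probes lie to the right of the dashed line of equal ratios and the 41 lower ones to the left, with 3 probes above 5 on the horizontal axis.

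The largest differences belonged to 3 probes with no symbol in the table used here. ST_Mm_277 had log2 ratios of 5.66, 6.00 and 6.60 (lowest, median and highest of 6 arrays) in CAR/PXR-deficient livers, against -1.67, -0.85 and 0.17 in PXR-deficient livers. Every CAR/PXR-deficient array was far above every PXR-deficient one, and the difference was 6.82 ± 0.47 (SE, limma, adjusted p = 9.96e-12). ST_Mm_279 differed by 6.78 ± 0.45 and ST_Mm_280 by 6.39 ± 0.41, again with all 6 arrays of one genotype above all 6 of the other. Groups that did not overlap were a condition for naming a probe, and 71 of the 236 probes (30.1%) met it. Over the alternatives tried, the turned sign aside, ST_Mm_277 differed by 5.93 to 7.19, ST_Mm_279 by 5.89 to 7.07 and ST_Mm_280 by 5.60 to 7.10, so their size is known only roughly. For ST_Mm_280 the vehicle channel was above background on 3 of 6 CAR/PXR-deficient arrays.

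Fgb, the acute-phase gene for the fibrinogen β chain, had ratios of 1.32, 1.67 and 1.89 in CAR/PXR-deficient livers, against -1.30, -0.98 and 0.00 in PXR-deficient livers. The genotypes did not overlap and the difference was 2.51 ± 0.18 (SE, limma, adjusted p = 2.01e-11). The unnamed probes ST_Mm_292 (3.24 ± 0.21), ST_Mm_291 (2.86 ± 0.20), ST_Mm_281 (2.39 ± 0.27) and ST_Mm_284 (1.11 ± 0.14) were higher as well. Crp, the gene of C-reactive protein, which in mouse responds weakly to inflammation, had a ratio of 0.52 ± 0.08 in CAR/PXR-deficient livers and -0.14 ± 0.35 in PXR-deficient livers (SD, n = 6 each; limma, adjusted p = 0.000172). With control centring the differences of Crp (0.39, adjusted p = 0.245) and ST_Mm_284 (0.70, adjusted p = 0.0956) no longer passed limma's test.

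Abca1, the pump that loads cholesterol onto apolipoprotein A-I, had a ratio near 0 in one genotype and below 0 in the other. Its ratios were 0.05, 0.10 and 0.20 in CAR/PXR-deficient livers, against -1.28, -1.01 and -0.63 in PXR-deficient livers. No PXR-deficient array reached the lowest CAR/PXR-deficient one, and the difference was 1.08 ± 0.10 (SE, limma, adjusted p = 5.87e-09). Within genotypes, the Abca1 ratio lay below 0 in PXR-deficient livers (limma, adjusted p = 4.02e-10). In CAR/PXR-deficient livers the ratio did not pass the test against 0 (limma, adjusted p = 0.238).

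On the lower side, Slco1b2 had ratios of -1.12, -0.93 and -0.59 in CAR/PXR-deficient livers, against 0.51, 0.80 and 0.99 in PXR-deficient livers. All arrays of one genotype were below 0 and all of the other above it. The difference was -1.66 ± 0.12 (SE, limma, adjusted p = 1.16e-11), a 3.15-fold lower ratio. Abcc2, which exports conjugated bilirubin and drugs into bile, had ratios of -0.48, -0.32 and -0.21 in CAR/PXR-deficient livers, against 0.24, 0.40 and 0.54 in PXR-deficient livers. Its arrays did not overlap either, and the difference was -0.74 ± 0.07 (SE, limma, adjusted p = 9.18e-09). Abcc3, an exporter on the blood side of hepatocytes, was lower by the same test (-0.50 ± 0.07 SE, limma, adjusted p = 7.33e-06).

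G6pc, the enzyme that releases glucose in the last step of gluconeogenesis, had ratios of -0.47, -0.20 and 0.26 in CAR/PXR-deficient livers, against 0.50, 0.60 and 0.89 in PXR-deficient livers. The genotypes did not overlap, at a difference of -0.82 ± 0.21 (SE, limma, adjusted p = 0.00317). Ppp1r3c, a glycogen-targeting subunit of protein phosphatase 1, differed by -0.74 ± 0.13 (SE), on a dim probe seen above background in Cy5 on 5 and in Cy3 on 4 of 6 PXR-deficient arrays. The unnamed probes ST_Mm_137 (-0.98 ± 0.10), ST_Mm_295 (-0.83 ± 0.11), ST_Mm_217 (-0.83 ± 0.09) and ST_Mm_051 (-0.74 ± 0.11) completed the group together with 2 P450 enzymes described next.

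**Figure D2:**
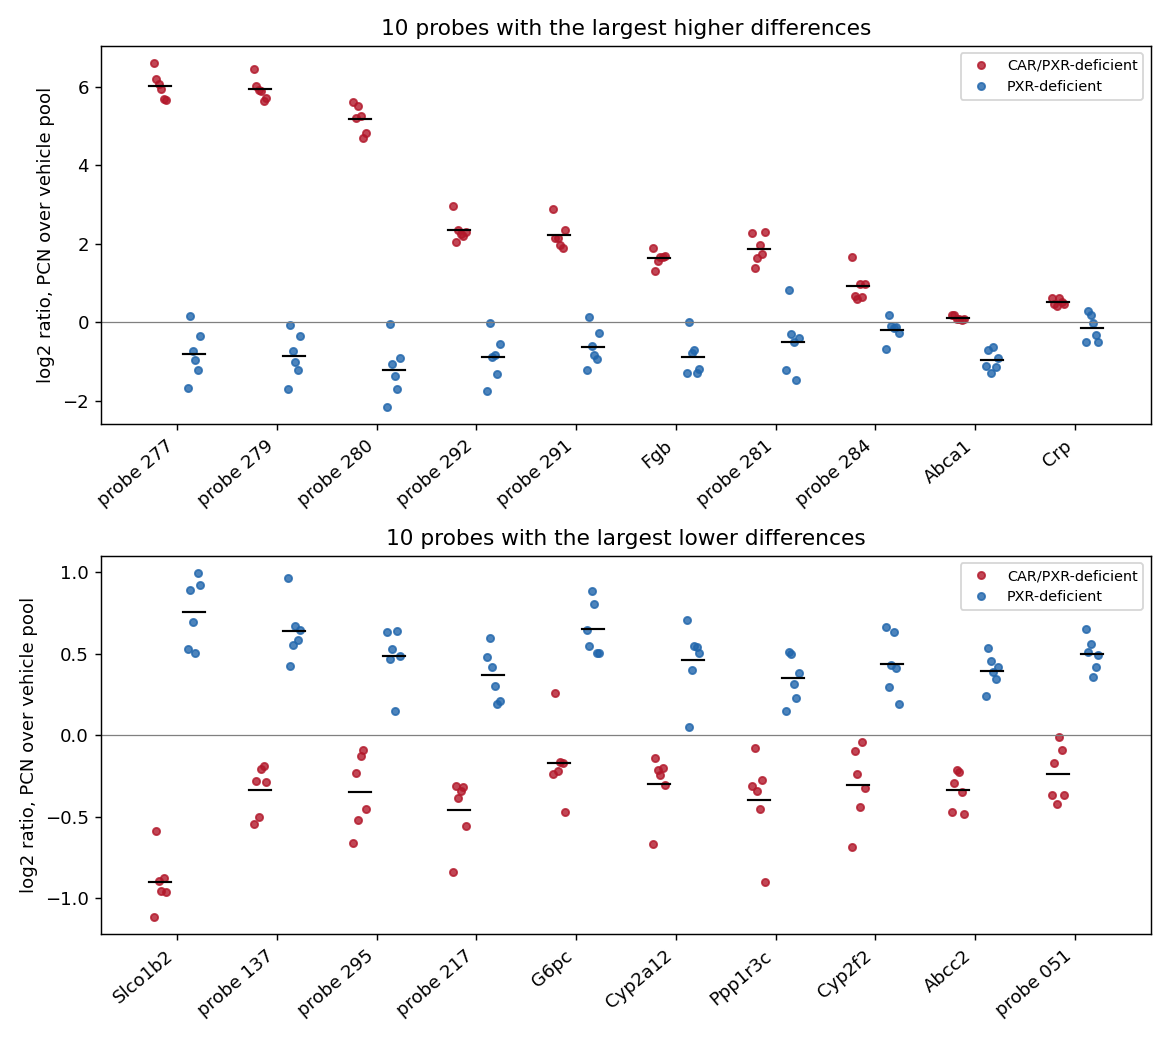
PCN log2 ratio (vertical axis) on each of the 6 CAR/PXR-deficient and 6 PXR-deficient arrays for the 10 probes with the largest higher and the 10 with the largest lower differences; points are arrays and short lines are means. No probe shown has overlapping groups, and Slco1b2 lies below 0 on every CAR/PXR-deficient array and above 0 on every PXR-deficient one.

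Of 25 tested probes whose symbol begins with Cyp, for cytochrome P450, 10 were lower and 5 higher. That compares with 17.4% lower and 24.2% higher over all tested probes. This family was looked at after its values were seen. The family median was -0.08, and 0.06 over all tested probes. Cyp2a12, a steroid hydroxylase of liver, had ratios of -0.67, -0.23 and -0.14 in CAR/PXR-deficient livers, against 0.05, 0.52 and 0.71 in PXR-deficient livers. Cyp2f2, an enzyme of naphthalene metabolism, had ratios of -0.68, -0.28 and -0.04 in CAR/PXR-deficient livers, against 0.19, 0.42 and 0.66 in PXR-deficient livers. The differences were -0.76 ± 0.10 for Cyp2a12 and -0.74 ± 0.11 for Cyp2f2 (SE; limma, adjusted p = 1.56e-06 and 7.84e-06). Cyp2c40 (-0.65), Cyp2d22 (-0.53), Cyp2e1 (-0.49), Cyp2j5 (-0.42), Cyp4b1 (-0.42), Cyp4f14 (-0.39), Cyp3a11 and Cyp27a1 were the other lower members. The 5 higher members were Cyp1a1, Cyp17a1, Cyp46a1, Cyp2b13 and Cyp2g1, by 0.27 to 0.34. Tbxas1 (0.43) and Ptgis (0.30), P450 genes whose symbols do not begin with Cyp, were not counted and were also higher. Neither passed with control centring (limma, adjusted p = 0.0787 and 0.349). With control centring 12 members were lower and 0 higher, against 38 lower and 10 higher of all 236 probes. With median centring 8 were lower and 1 higher, against 32 lower and 29 higher of all 236. The other family looked at after its values were seen was that of 37 probes whose symbol begins like that of a nuclear receptor. They include the probes of Ppargc1a and Ppargc1b, which are coactivators and not receptors, and which did not pass the test. Of these 37 probes, 11 were higher and 1 lower in the main setting, with a median of 0.16. Over all tested probes 24.2% were higher and 17.4% lower. With control centring 0 of the 37 were higher and 1 lower, and with median centring 5 were higher and 1 lower. The authors' deposited series values gave 1 higher and 0 lower.

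Cyp3a11, the classic PCN-inducible gene of mouse liver, had a PCN log2 ratio of -0.37 ± 0.33 in CAR/PXR-deficient livers and 0.30 ± 0.28 in PXR-deficient livers (SD, n = 6 each). Where PXR was present the ratio was 2.23 ± 0.55 after loss of CAR and 2.94 ± 0.32 in wild type (SD, n = 6 each). The first pair of genotypes overlapped, from -0.99 to -0.08 in CAR/PXR-deficient livers and from -0.14 to 0.62 in PXR-deficient livers. Their difference was -0.68 ± 0.20 (SE, limma, adjusted p = 0.00997), and it was -0.74 ± 0.29 with median centring, where it did not pass (SE, limma, adjusted p = 0.0584). Neither genotype's own ratio passed the test against 0 (limma, adjusted p = 0.0596 in CAR/PXR-deficient and 0.0964 in PXR-deficient livers).

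Since each ratio has a PCN and a vehicle side, the channels were also compared, as a description with no test because each genotype had 1 vehicle pool. For all 20 named probes the difference between genotypes was larger in Cy3, the vehicle channel, than in Cy5. The same held for 66 of the 98 differing probes, 30 of the 57 higher and 36 of the 41 lower, and for 78 of the 138 probes that did not pass the test. ST_Mm_277 had a Cy3 level of 8.90 in the CAR/PXR-deficient pool, against 13.66 in the PXR-deficient, 13.52 in the CAR-deficient and 12.91 in the wild type pool (log2 intensity). Its Cy5 level was 14.93 in CAR/PXR-deficient livers, against 12.87 in PXR-deficient livers. The CAR/PXR-deficient vehicle pool was thus the one that stood apart for this probe.

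Other probes set a different pool apart. Abca1 had Cy5 levels of 9.01 in CAR/PXR-deficient and 8.95 in PXR-deficient livers, and Cy3 levels of 8.88 in CAR/PXR-deficient and 9.91 in PXR-deficient pools, beside 8.75 in the CAR-deficient and 9.05 in the wild type pool. The high value was that of the PXR-deficient pool. Slco1b2 had Cy3 levels of 11.06 in the CAR/PXR-deficient and 10.12 in the PXR-deficient pool, with the CAR-deficient pool at 10.79 and the wild type pool at 10.77. Its Cy5 levels were 10.17 in CAR/PXR-deficient livers and 10.87 in PXR-deficient livers. Cyp3a11 had Cy3 levels of 13.22 in the CAR/PXR-deficient and 11.90 in the PXR-deficient pool, and Cy5 levels of 12.85 in CAR/PXR-deficient and 12.21 in PXR-deficient livers. The lower Cyp3a11 ratio thus went with a higher level in both channels of the CAR/PXR-deficient arrays. Whether a differing vehicle pool accounts for any of the ratios was not tested.

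**Figure D3:**
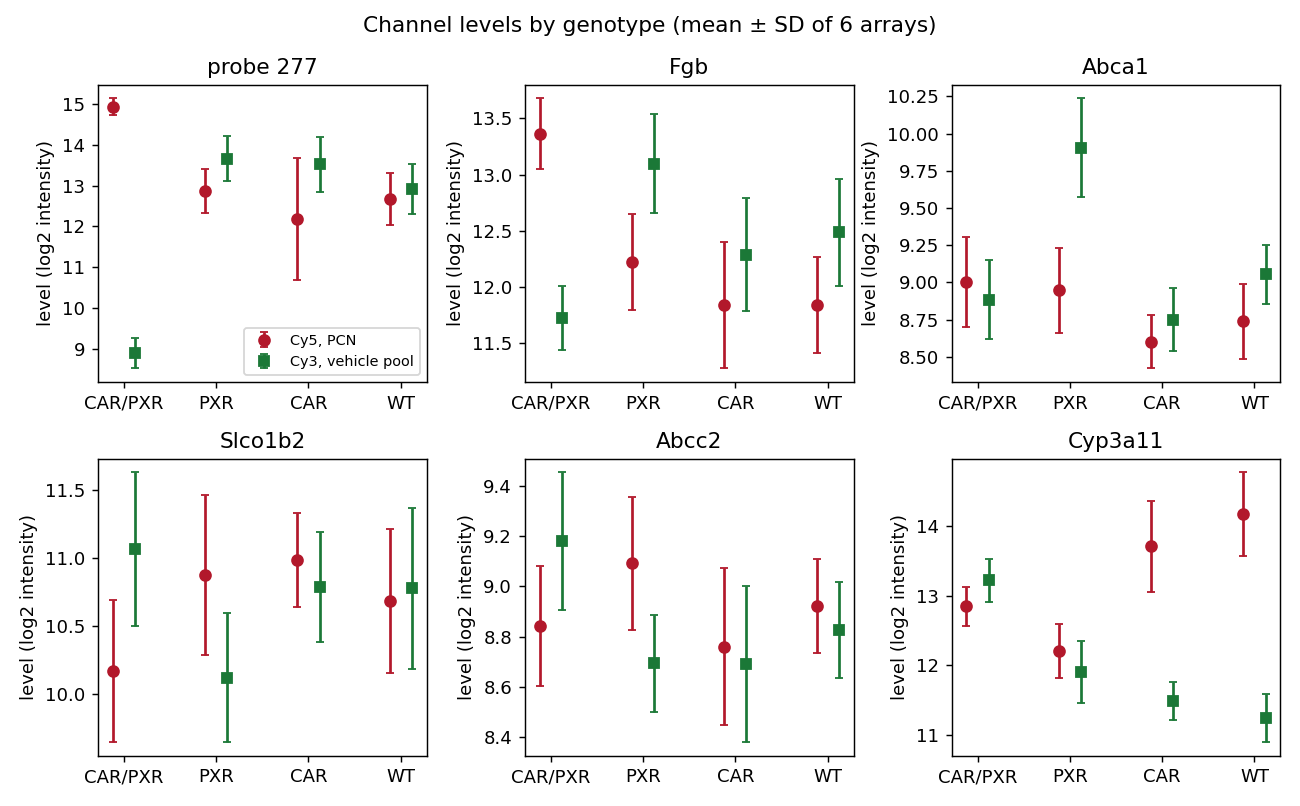
Level on the log2 intensity scale (vertical axis) of Cy5 (PCN, circles) and Cy3 (vehicle pool, squares) in CAR/PXR-deficient, PXR-deficient, CAR-deficient and wild type (WT) arrays for 6 probes; points are means and bars SD over 6 arrays. The Cy3 level of the first probe, ST_Mm_277, is 8.90 in the CAR/PXR-deficient pool and 12.91 or more in the others, while Abca1 is highest in Cy3 of the PXR-deficient pool.

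The upstream sequences of 4 named genes are shown because Fgb and Crp were higher and Slco1b2 and Abcc2 lower. They are the 250 bases before the start of each gene from RefSeq (GRCm38.p6), in the gene's direction, with capitals marking any match on either strand to the nuclear receptor half-site letters AGGTCA or AGTTCA, to the STAT-like letters TTCNNNGAA or to CTGGGAA, the core of a fibrinogen-type interleukin-6 element. All 9 named probes with a symbol had a sequence in the table.
Fgb, chr3:83049864-83050113, minus strand: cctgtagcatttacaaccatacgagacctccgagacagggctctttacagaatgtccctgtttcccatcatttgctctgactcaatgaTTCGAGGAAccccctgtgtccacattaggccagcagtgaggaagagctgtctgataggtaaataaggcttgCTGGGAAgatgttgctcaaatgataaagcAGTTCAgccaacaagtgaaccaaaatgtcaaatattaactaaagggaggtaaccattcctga
Crp, chr1:172697806-172698055, plus strand: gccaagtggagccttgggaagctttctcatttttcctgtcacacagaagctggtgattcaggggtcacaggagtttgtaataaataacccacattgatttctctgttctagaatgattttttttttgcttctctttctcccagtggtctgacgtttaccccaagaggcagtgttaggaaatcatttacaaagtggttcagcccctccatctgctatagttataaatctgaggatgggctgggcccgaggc
Slco1b2, chr6:141629268-141629517, plus strand: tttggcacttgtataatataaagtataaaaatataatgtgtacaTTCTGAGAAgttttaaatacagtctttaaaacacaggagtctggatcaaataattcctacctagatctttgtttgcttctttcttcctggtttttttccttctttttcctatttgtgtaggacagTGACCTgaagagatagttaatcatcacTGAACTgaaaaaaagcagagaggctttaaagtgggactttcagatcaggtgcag
Abcc2, chr19:43782058-43782307, plus strand: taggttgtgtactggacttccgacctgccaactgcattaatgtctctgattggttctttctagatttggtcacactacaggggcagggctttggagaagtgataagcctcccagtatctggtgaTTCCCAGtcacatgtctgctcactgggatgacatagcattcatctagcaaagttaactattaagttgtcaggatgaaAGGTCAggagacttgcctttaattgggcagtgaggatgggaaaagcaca
Among 32851 promoter windows of the same length, 14% held AGGTCA, 11.8% AGTTCA, 7.02% TTCNNNGAA and 9.1% CTGGGAA. Fgb held 3 of the 4 motifs, Slco1b2 held 3, Abcc2 held 2 and Crp none, which says only that these letters are or are not in these windows.

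The share of members that passed in the gene lists is set beside the 41.5% of all tested probes that passed, 24.2% higher and 17.4% lower, and nothing particular to a list is read from it. Of 7 tested CAR and PXR target genes, Abcc2 and Cyp3a11 were lower and Abcb1a, a drug efflux pump, was higher (0.47 ± 0.16 SE, limma, adjusted p = 0.0177), which is 42.9% of the list, and the list median was -0.27. With control centring Abcb1a did not pass (0.23, limma, adjusted p = 0.0956). Nor did it pass with median centring (0.47, adjusted p = 0.0573) or with the authors' deposited series values (0.31, adjusted p = 0.271). Alas1, Cyp3a13, Cyp3a41a and Slco1a4 did not pass the test. Of 5 bile acid genes, Abcb11, the bile salt export pump, was higher (0.48 ± 0.18 SE) and Cyp27a1, a sterol 27-hydroxylase, was lower (-0.22 ± 0.08 SE), while Cyp7a1, the rate-limiting enzyme of bile acid synthesis, differed by 0.08 ± 0.09 (SE, limma, adjusted p = 0.519). These were 40% of the list, with a median of 0.08. Abcb11 did not pass with control centring (0.24, limma, adjusted p = 0.162) or with the authors' deposited series values (0.27, adjusted p = 0.36). Cyp27a1 did not pass with median centring (-0.18, limma, adjusted p = 0.155) or with those series values (-0.13, adjusted p = 0.36). Of 10 cholesterol synthesis genes, 5 were higher and 0 lower, against 24.2% and 17.4% of all probes, with a median of 0.11. The 5 were Lss, Fdps, Mvd, Ebp and Mvk, all enzymes of the pathway. Insig1 (-0.33), Fdft1 (-0.31), Msmo1 (-0.23) and Hmgcs1 (-0.11) lay on the other side of 0 and did not pass in the main setting. With limma's default background fit 4 members passed as higher and 2 as lower, and with a background offset of 16 these were 5 and 2. With control centring 0 of the 10 passed the test and Mvk changed sign (-0.01), and with the authors' deposited series values 0 passed.

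Nr1h4, the bile acid receptor FXR, was higher (0.32 ± 0.08 SE) and Nr1i3 lower (-0.17 ± 0.06 SE) among 4 receptor genes, 50% of a list whose median was 0.06. Of 4 tested circadian genes, Cry1, a clock repressor, was higher (0.27 ± 0.08 SE) and 3 did not pass, so that 25% passed against 41.5% of all tested probes. Nr1i3 did not pass with the authors' deposited series values (-0.31, limma, adjusted p = 0.0745). With control centring Nr1h4 did not pass (adjusted p = 0.272, limma) and Cry1 changed sign (-0.10). With the authors' deposited series values neither Nr1h4 (0.34) nor Cry1 (0.41) passed (limma, adjusted p = 0.0745 and 0.053). Cry1 did not pass with median centring either (0.15, adjusted p = 0.447). Of the 2 liver genes, Cyp2e1 was lower (50%) and Apoa1 differed by 0.07 ± 0.12 (SE). Both probes of Actb, the cytoskeletal gene often taken as unchanging, were higher (0.47 ± 0.13 and 0.40 ± 0.15 SE), and neither passed with control centring (limma, adjusted p = 0.512 and 0.587). Gapdh and Ppia are also often taken as unchanging. Neither Gapdh probe passed in the main setting (-0.05 and 0.15, limma, adjusted p = 0.519 and 0.0768), nor did the Ppia probe (-0.06, adjusted p = 0.586).

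**Figure D4:**
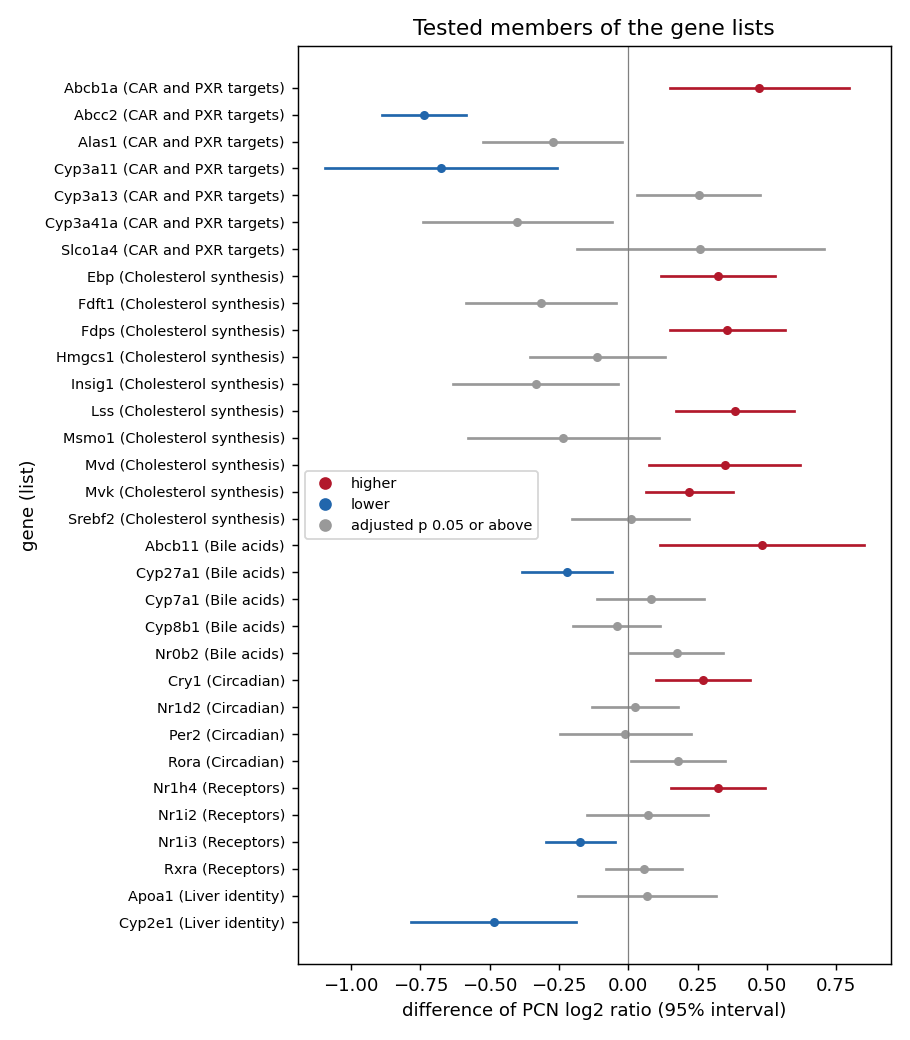
Difference of the PCN log2 ratio, CAR/PXR-deficient minus PXR-deficient (horizontal axis, log2, lines are 95% intervals), for the tested members of the 6 gene lists, coloured by the test. Abcc2 and Cyp3a11 lie furthest to the left, and the 5 cholesterol synthesis genes that passed lie between 0.22 and 0.39.

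Loss of CAR was also measured where PXR was present, as CAR-deficient against wild type livers. There 3 of 236 probes differed (1.27%; limma, adjusted p under 0.05), and 39 (16.5%) at an unadjusted p under 0.05. The 3 were Cyp3a41a (-0.91), Cyp3a13 (-0.44) and Crebbp (0.39), and none was among the 98. The median size of the difference over all tested probes was 0.21 on the log2 scale between the PXR-deficient genotypes, against 0.12 between CAR-deficient and wild type livers. The difference between these effects of CAR loss passed limma's test for 101 of 236 probes (42.8%), 58 higher (24.6%) and 43 lower (18.2%) where PXR was missing. That count was 43 with median centring, 42 with control centring and 60 with the authors' deposited series values. It contains the difference between CAR/PXR-deficient and PXR-deficient livers as its first term, so it is no independent evidence for that difference. The 4 genotypes each had their own vehicle pool, so pool and genotype cannot be told apart in this test.

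The 20 named probes were chosen for their difference where PXR was missing, so both effects of CAR loss are given for them side by side, as a description. Slco1b2 differed by -1.66 between CAR/PXR-deficient and PXR-deficient livers and by 0.29 between CAR-deficient and wild type livers. For Fgb the values were 2.51 and 0.20, for Abca1 1.08 and 0.16, and for Abcc2 -0.74 and -0.03. For Crp they were 0.67 and 0.37. For Cyp3a11 the effects were -0.68 and -0.72, and their difference of 0.04 did not pass (limma, adjusted p = 0.915).

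**Figure D5:**
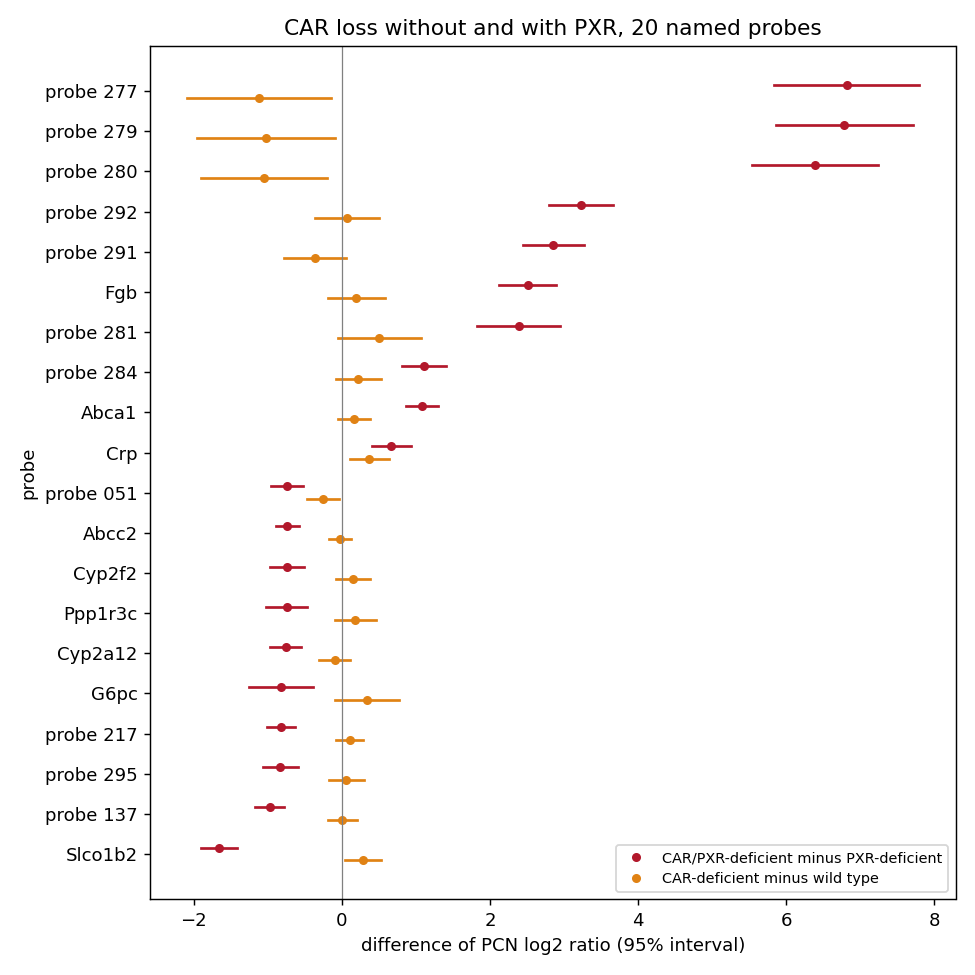
Difference of the PCN log2 ratio on loss of CAR (horizontal axis, log2, lines are 95% intervals) for the 20 named probes, where PXR was missing (CAR/PXR-deficient minus PXR-deficient, upper point) and where it was present (CAR-deficient minus wild type, lower point). The intervals of Slco1b2 lie on opposite sides of 0, and those of Crp overlap.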

How the data were processed

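Dual-colour spotted arrays of mouse liver RNA were read from the scanner files. Per the file headers, the deposited values are foreground and background intensity in each channel, the percent of pixels above background + 2 SD, flags and a log ratio column. The authors also deposited log2 ratios as series values, which ran in the direction of Cy5 over Cy3 and whose centring is unknown.

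Intensities were background-corrected (normexp, offset 50) and loess-normalized within arrays (span 0.3, 4 iterations) with limma 3.58.1 under R 4.3.3. The default normexp fit failed on 1 of 48 channels (Cy5 of CAR/PXR-deficient replicate 6), where the same likelihood was optimised from another start. Replicate spots were averaged per probe. The filter called a spot seen if more than 50% of its pixels exceeded background + 2 SD in either channel, and kept probes with 50% or more of their spots seen on 50% or more of the arrays of any genotype. One linear model with empirical Bayes moderation over all 24 arrays gave the p-values, with Benjamini-Hochberg adjustment over 236 probes. Channel levels were Aquantile-normalized after loess. The number of arrays limits the precision. Named probes were up to 10 per direction with the largest differences among those that passed and whose arrays did not overlap. The members and lists were chosen with earlier results of these data known. The model was run on simulated data with independent noise for each probe and array. Shifts of whole arrays were not simulated, so that run cannot show how the model behaves with arrays that stood apart. Symbols came from the platform annotation, and all 147 were found in RefSeq. Replicate numbers did not pair the arrays (correlations of deviations -0.42 to 0.07, with 0 pairs over 0.1).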

Additional observations from a re-analysis of the deposited data

Results flagged for a closer look

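The effect of CAR loss differed between livers without and with PXR for 19 of the 20 named probes, by an interaction term in limma, against 42.8% of all tested probes. These probes were chosen for a large difference where PXR was missing, which is the first term of the interaction, so the count follows largely from the choice and supports nothing. The difference of effects was 7.94 for ST_Mm_277, 7.81 for ST_Mm_279, 7.44 for ST_Mm_280, 3.22 for ST_Mm_291, 3.17 for ST_Mm_292, 2.31 for Fgb (ST_Mm_290), 1.88 for ST_Mm_281, 0.92 for Abca1 (ST_Mm_001) and 0.89 for ST_Mm_284. On the lower side it was -1.94 for Slco1b2 (ST_Mm_297), -1.16 for G6pc (ST_Mm_230), -0.98 for ST_Mm_137, -0.93 for ST_Mm_217, -0.92 for Ppp1r3c (ST_Mm_318), -0.89 for ST_Mm_295, -0.89 for Cyp2f2 (ST_Mm_044), -0.71 for Abcc2 (ST_Mm_007), -0.66 for Cyp2a12 (ST_Mm_036) and -0.48 for ST_Mm_051.

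One array lay far from the other 5 of its genotype in 4 of the 40 groups of arrays screened, and chance alone gives about 1 in 20 groups. CAR/PXR-deficient replicate 1 had a log2 ratio of -0.67 for Cyp2a12 (ST_Mm_036), against -0.31 to -0.14 on the others. The same array had 1.68 for ST_Mm_284, against 0.59 to 0.99, and 2.97 for ST_Mm_292, against 2.05 to 2.36. PXR-deficient replicate 4 had 0.15 for ST_Mm_295, against 0.47 to 0.64.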

How the results depend on the processing

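The named probes and Cyp3a11, 21 results, kept their direction wherever they were tested under 30 alternatives (the turned sign aside), and their call in all but 3 cases: Crp and ST_Mm_284 with control centring and Cyp3a11 with median centring. The counts below are of probes that passed limma's test, and the cause of each change was not tested. With median centring there were 61 between the PXR-deficient genotypes (29 higher), 43 for the difference of effects and 56 within PXR-deficient livers. With centring on the control probes these were 48 (10 higher), 42 and 51, and 35 within CAR/PXR-deficient livers. The same centring without PXR-deficient replicate 2, chosen after seeing the data, gave 45 (14 higher), 51 and 42. The authors' deposited series values gave 26 higher, 60 for the difference of effects and 60 within PXR-deficient livers, and their log ratio column 61 within PXR-deficient livers. Within CAR/PXR-deficient livers, where 53 passed in the main setting, there were 33 with limma's default background fit, 88 with array weights and 34 without replicates 5 and 6. Within PXR-deficient livers 92 passed in the main setting and 65 without replicate 2.

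Leaving out 1 array at a time gave 88 to 102 probes (48 to 58 higher, 38 to 44 lower), 88 to 103 for the difference of effects, 43 to 65 within CAR/PXR-deficient and 65 to 93 within PXR-deficient livers. Over the same alternatives 61 to 70 differing and 18 to 20 named probes had the larger part in Cy3. With no normalization between arrays, chosen after seeing the data, these were 55 and 19. Without CAR/PXR-deficient replicates 5 and 6 and PXR-deficient replicate 2 together, also chosen after seeing the data, 73 probes differed. With the replicate number as a block there were 92, of which 91 were among the 98; the numbers do not pair the arrays, and 0 of 12 arrays correlated best with its own number.

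With the sign of the CAR/PXR-deficient ratios turned, 51 probes differed (21 higher), and 44 for the difference of effects. The values were then -5.23 for ST_Mm_277, -5.10 for ST_Mm_279, -3.99 for ST_Mm_280, -1.37 for ST_Mm_281, -0.38 for Crp, -0.74 for ST_Mm_284, -0.76 for Fgb, -1.61 for ST_Mm_291, -1.47 for ST_Mm_292, 0.090 for ST_Mm_217, 0.14 for Slco1b2, 0.046 for Ppp1r3c and 0.070 for Cyp3a11. The other named probes kept their direction at a smaller size: -0.059 for Abcc2, -0.14 for Cyp2f2 and ST_Mm_295, -0.16 for Cyp2a12, -0.26 for ST_Mm_051, -0.30 for ST_Mm_137, -0.48 for G6pc and 0.84 for Abca1. A block on slide or scan date was not run, since the headers used here give neither. Dim probes limit what can be seen: the median mean log2 intensity was 9.15 for the higher and 9.05 for the lower probes, against 7.76 for those that did not pass the test.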
